A study of Ailuropoda melanoleuca with 25 samples.

Results

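In 5 tissues of the giant panda 25376 genes were measured, and names came only from the study's list of tissue-specific DEGs. Matrix genes outside that list could not be counted. Among the 1778 named gene identifiers of the list, 26 carried the names of extracellular matrix proteins, integrins and their partners, or proteases of the matrix. They were chosen by the differential expression of each tissue against the others in these same libraries: they come from the list of tissue-specific DEGs that the study drew, and are every listed gene whose name begins like that of a collagen, laminin, integrin, MMP, ADAM, TIMP, fibulin, fibrillin, microfibril protein, elastin, EMILIN, matrilin, tenascin X, spondin, periostin, latent TGF-beta binding protein or hyaluronan link protein. The listed gene identifier was then looked up in the table of expression values, and all 26 were found there. No listed gene was named for a TIMP, fibulin, fibrillin, elastin, tenascin X, spondin or periostin, so no inhibitor of the metalloproteinases and no gene of the elastin core was among the 26. The names fell into 3 genes of the basement membrane, 5 of elastic fibres and microfibrils, and 3 link proteins and matrilins. The rest were 6 integrin subunits and integrin-related proteins and 9 genes of the protease families. Of these 9, ADAM23 encodes a protein without protease activity.

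The tissues were heart, liver, spleen, lung, and kidney, each with 5 libraries of messenger RNA, 1 from each of the same 5 pandas. Panda 1 was a female with an age of 27 in the labels that died of ovarian cancer, and panda 2 was a female with an age of 9 and a cause of death labelled ileac pssion. Pandas 3 and 4 were females and panda 5 was a male, all 3 with an age of 0.5 and a death from coronavirus infection. No unit of age is given in the labels, no animal was treated, and the tissues were taken from dead animals. Expression was measured as FPKM, the fragments on a gene scaled to its length and to the total of its library, so levels of different genes are comparable per length.

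The extracellular matrix is the protein scaffold outside cells. Basement membranes, built of collagen IV and laminins, underlie epithelia and muscle cells, whereas microfibrils and elastin give stretch to vessels, lung, and heart. Integrins, each a pair of 1 alpha and 1 beta subunit, anchor cells to this scaffold and to ligands on other cells. The MMP, ADAM, and ADAMTS proteases cut matrix and cell surface proteins, and the ADAMTS-like proteins share their binding domains without the protease domain.

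The libraries held between 13149557 and 21383373 reads on genes (median 16215796), and 3 reads, the limit that a count of 0 allows for counting error only, were worth between 0.140 and 0.228 FPKM for a gene of 1 kb. Named markers of the labelled tissue stood far above the other tissues in the heart (7 cardiomyocyte genes), the liver (6 hepatocyte genes), the spleen (6 B cell genes), the lung (6 epithelial genes), and the kidney (6 tubule genes). A pair of libraries stood apart. The liver library of panda 3 was the lowest of the 5 livers in 57.3% of expressed genes and in 19 of the 26 genes described here, and its 6 hepatocyte markers were uneven. They summed to 23400 FPKM against 24200 to 57900 in the other livers, but APOC1 made up 17500 FPKM of that sum, while SERPINC1 was 131 FPKM against 1200 to 1930, FGA 146 against 1110 to 3610, AHSG 928 against 3400 to 15000, and FGG 1040 against 2750 to 12300 FPKM. The kidney library of panda 4 was the lowest kidney in 42.3% of expressed genes. Its 6 tubule markers summed to 1040 FPKM against 8580 to 12500 in the other kidneys, whereas the liver of panda 3 was low in most genes. The scale of these libraries differed too. The TMM factor, a trimmed mean ratio of a library to a reference library, was 0.201 in this liver against 0.530 to 0.748 in the other livers. In the kidneys of pandas 4 and 2 it was 0.775 and 0.832, against 1.17 to 1.55 in the others. Panda 2 was the lowest kidney in 30.8% of expressed genes. The part of scale in these low values was not tested. In bulk tissue, fewer cells of a type and less RNA per cell cannot be told apart.

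The study listed these genes because they differed between tissues, so the level in a listed tissue is given as a description with no test. The 26 genes made 28 listings, since ADAM28 was listed for both spleen and lung and MMP7 for both heart and kidney. Heart had 12 listings, of which 7 were higher and 5 lower than the mean of each other tissue, and liver had 6, of which 2 were higher and 4 lower. Spleen had 5, 4 of them higher than each other tissue and 1 (ADAM28) below the lung and above the rest. Both lung listings and all 3 kidney listings were higher. In 14 of the 28 listings the 5 libraries of the listed tissue did not overlap with the 20 others, which was so for 63.4% of all 3142 listings of the study.

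By the highest mean over the 5 tissues, 9 of the genes peaked in the spleen, 8 in the heart, 4 in the kidney, 3 in the lung, and 2 in the liver. Among all expressed genes, 34.4% peaked in the spleen, 8.35% in the heart, 20.1% in the kidney, 30.1% in the lung, and 7.04% in the liver. The lowest mean was in the liver for 16 of the 26 genes and in the heart for the other 10, against 46.7% and 42.2% of all expressed genes. The study's threshold of 2 applied to a log2 fold change from DESeq, whereas log2(FPKM + 1) understates differences at low levels. LAMB4, with means of 2.14 FPKM in the spleen and at most 0.193 FPKM elsewhere, was beyond 2 in 0 of its 4 pairs. On the log2(FPKM + 1) scale, 8 listings lay beyond a difference of 2 in all 4 pairs of their tissue. The share over all listings of the study is not given. The values nearest to 2 were 2.004 for LAMC3 in the kidney and 2.04 for ADAMTS13 in the liver on one side, and 1.94 for ADAMTS7, 1.91 for MMP7 in the kidney, and 1.90 for ITGA7 on the other.

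**Figure D1:**
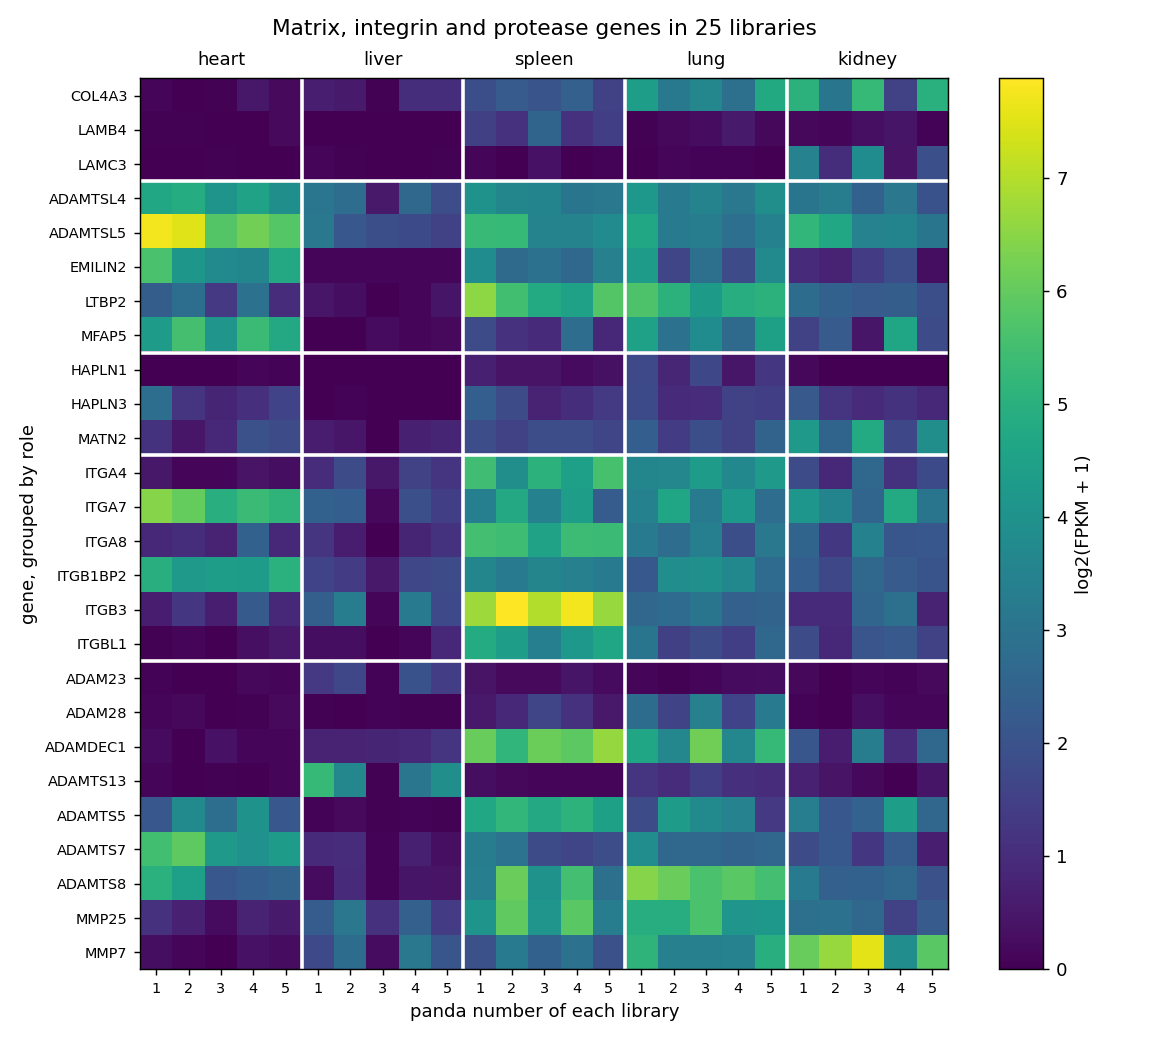
Level of the 26 genes in the 25 libraries, as log2(FPKM + 1) on the colour scale, with libraries in columns by tissue and panda and genes in rows by role (basement membrane, elastic fibre and microfibril, link proteins and matrilin, integrins and related, proteases, from the top). ITGB3 in the spleen and ADAMTSL5 in the heart of pandas 1 and 2 are among the brightest cells, and the liver column of panda 3 is dark for most genes.

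Among the basement membrane genes, COL4A3 and LAMC3 had their highest mean in the kidney and LAMB4 in the spleen. COL4A3 (ENSAMEG00000003817) encodes a collagen IV chain of the filtration barrier of the kidney and of the lung alveolus. Its levels in the kidneys of pandas 1 to 5 were 32.5, 7.38, 38.1, 1.88, and 30.7 FPKM, and in their lungs 19.9, 8.02, 11.5, 6.48, and 26.3 FPKM. Pandas 2 and 4 were the lowest in both tissues. The gene was listed as low in the heart, where it ranged from 0.0130 to 0.416 FPKM.

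LAMC3 (ENSAMEG00000016281), a laminin gamma chain, was listed for the kidney, with 10.3, 1.03, 13.2, 0.322, and 2.78 FPKM in pandas 1 to 5. All 20 libraries of the other tissues were at or under 0.305 FPKM, so even the low kidneys of pandas 2 and 4 did not overlap with them. LAMB4 (ENSAMEG00000014082), a laminin beta chain, was listed for the spleen, with 1.79, 1.16, 4.81, 1.199, and 1.75 FPKM. The spleens stood above all other libraries, which reached 0.496 FPKM, and the spleen of panda 3 was well above the other 4. LAMB4 had 0 reads in all 5 livers, which allowed up to between 0.0267 and 0.0359 FPKM.

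The 6 tubule markers summed to 9050, 10000, 12500, 1040, and 8580 FPKM in the kidneys of pandas 1 to 5. The sum was mostly FXYD2 (7070, 9220, 10400, 948, and 7340 FPKM). Panda 4 was the lowest kidney in each of the 6 tubule markers and in COL4A3, LAMC3, MATN2, and MMP7. Panda 3 was the highest kidney in these 4 genes and in the sum, but among the tubule markers SLC34A1 and SLC22A8 were highest in panda 1 (512 and 321 FPKM, against 174 and 197 FPKM in panda 3). Panda 2 had the second highest sum, FXYD2, and MMP7 (99.4 FPKM), and the second lowest COL4A3, LAMC3, and MATN2. It was also the second lowest kidney in the tubule markers UMOD (248 FPKM), SLC12A1 (24.1 FPKM), and CUBN (29.2 FPKM). In SLC22A8 and SLC34A1 panda 2 was in the middle. The part of kidney cell content in these levels was not tested.

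Of the 5 genes of elastic fibres and microfibrils, 4 were listed as high in the heart and 1 as low in the liver. ADAMTSL5 (ENSAMEG00000003454), a secreted protein that binds fibrillin microfibrils, had 211, 178, 53.6, 73.3, and 55.01 FPKM in the hearts of pandas 1 to 5. Its 20 other libraries ranged from 1.88 to 38.3 FPKM, all below the hearts. Its relative ADAMTSL4 (ENSAMEG00000001424), which also binds fibrillin, was less uneven, with 25.3, 28.4, 15.7, 22.2, and 14.3 FPKM in the hearts and a highest value elsewhere of 17.6 FPKM in the lung of panda 1. The hearts of pandas 3 and 5 therefore lay within the range of the lungs.

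MFAP5 (ENSAMEG00000007055), a glycoprotein of microfibrils, had 18.9, 46.0, 16.2, 40.5, and 26.0 FPKM in the hearts. The lungs overlapped with them, at 21.6, 6.68, 13.4, 5.58, and 21.3 FPKM, and so did a single kidney, that of panda 4, at 24.5 FPKM. The other 4 kidneys were between 0.400 and 3.78 FPKM. EMILIN2 (ENSAMEG00000009998), a glycoprotein of the surface of elastic fibres, had 48.3, 17.1, 12.6, 11.2, and 26.2 FPKM in the hearts. It was next highest in the lungs (2.12 to 19.0 FPKM) and spleens (5.20 to 13.1 FPKM), and all 5 livers were between 0.0706 and 0.108 FPKM. In heart, spleen, and lung alike, panda 1 had the highest EMILIN2 and panda 5 the next.

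LTBP2 (ENSAMEG00000018286), a fibrillin-binding protein that does not bind latent TGF-beta despite its family name, was listed as low in the liver (0.0196 to 0.390 FPKM). Its highest levels were in the spleen, at 92.1, 44.1, 27.0, 21.99, and 53.9 FPKM, and in the lung, at 49.7, 32.6, 18.6, 29.0, and 32.1 FPKM. Hearts and kidneys ranged from 1.02 to 6.79 FPKM, so no heart or kidney reached the level of any spleen or lung.

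**Figure D2:**
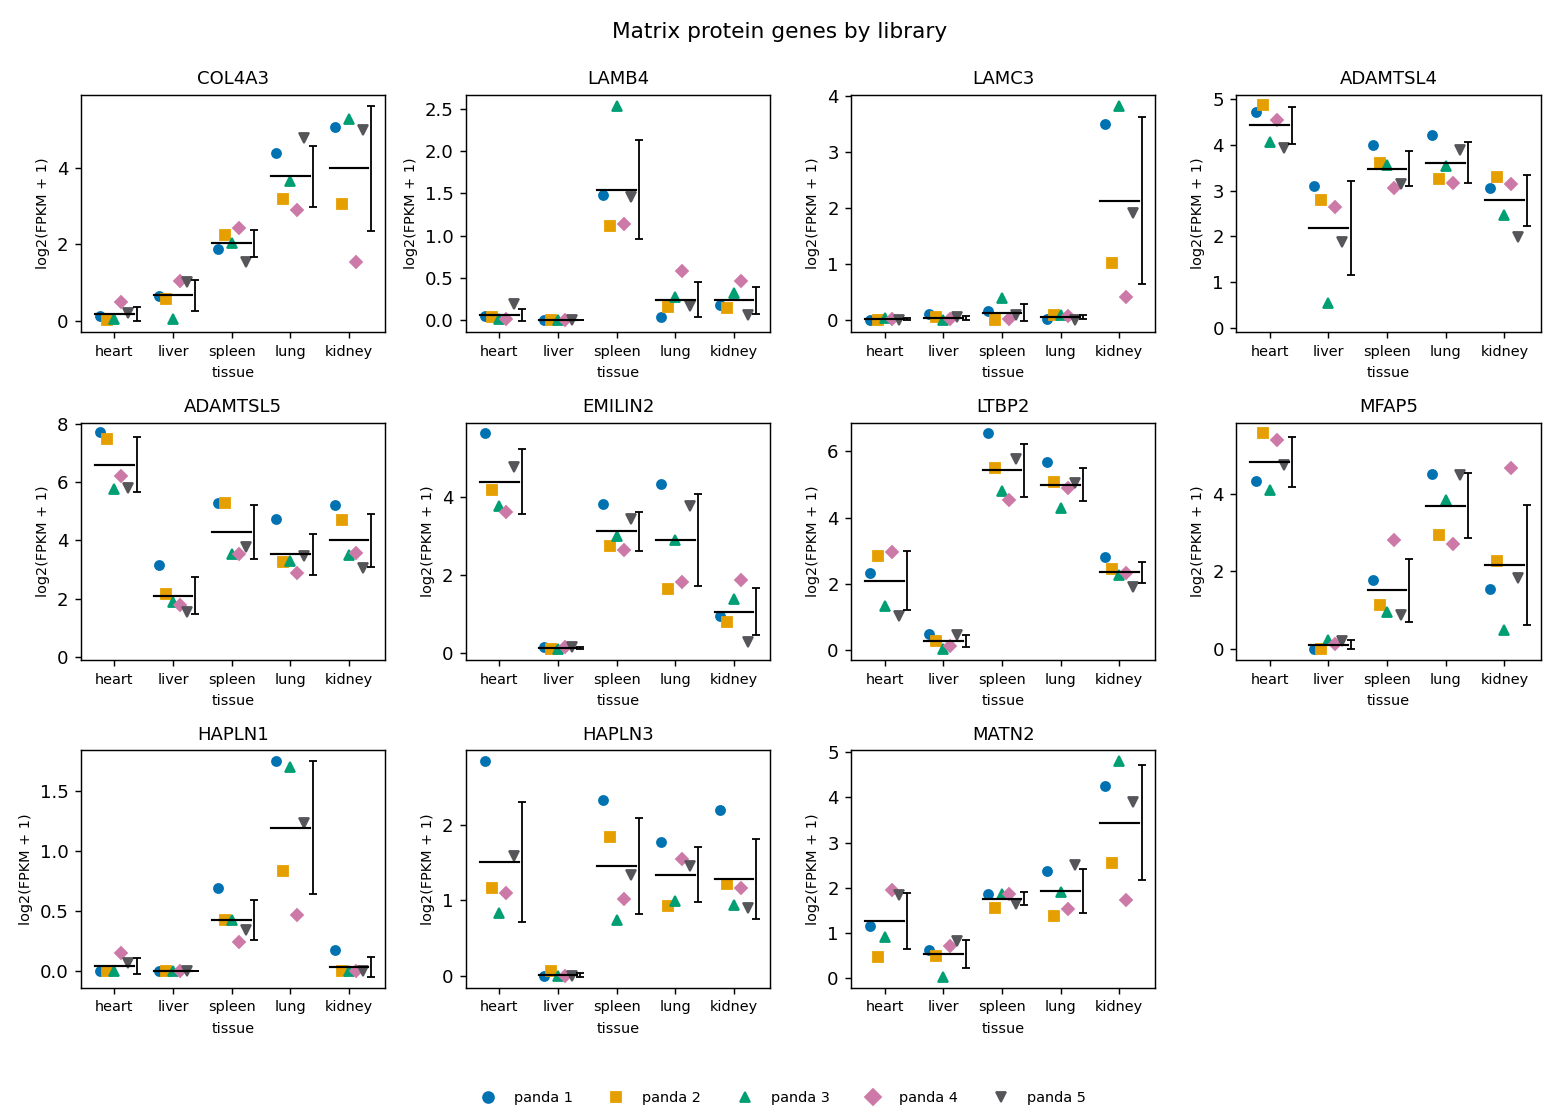
Level of the 11 matrix protein genes in each library, as log2(FPKM + 1) against tissue, with 1 point per panda, a line at the mean of 5 libraries, and a bar of 1 SD to its right (the vertical axes differ between genes). The MFAP5 kidney of panda 4 lies with the hearts, and the kidneys of pandas 2 and 4 are the low ones for COL4A3, LAMC3, and MATN2.

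The link proteins, which fasten proteoglycans to hyaluronan, were weakly expressed. HAPLN1 (ENSAMEG00000007517) was listed for the lung, with 2.36, 0.781, 2.24, 0.384, and 1.36 FPKM, and the lungs overlapped with the spleens, which reached 0.613 FPKM. No reads fell on it in any liver, which allowed up to between 0.131 and 0.176 FPKM. HAPLN3 (ENSAMEG00000012883) was listed as low in the liver, where 4 libraries had 0 reads and the fifth had 0.0452 FPKM. In the 4 other tissues it lay between 0.672 and 6.21 FPKM, and panda 1 was the highest animal in each of them. MATN2 (ENSAMEG00000000609), a matrilin that bridges matrix networks, was listed for the kidney, with 18.0, 4.87, 26.9, 2.29, and 13.8 FPKM. Kidney 4 was below the highest library of the heart, spleen, and lung, whereas the other 4 kidneys were above all 20 libraries of the other tissues.

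The integrin genes were divided between spleen and heart. ITGB3 (ENSAMEG00000014704), the beta subunit that pairs with ITGA2B on platelets and with ITGAV on other cells, had the highest level of the 26 genes. Its spleen values were 105, 234, 125, 213, and 99.5 FPKM, and the 20 other libraries did not exceed 9.01 FPKM. Pandas 2 and 4 were the high spleens, and the smallest difference of the spleen from another tissue was 4.53 on the log2 scale, from the lung. VTN, which encodes the ITGB3 ligand vitronectin, was lowest in the heart at 5.09 ± 4.76 FPKM (mean ± SD, n = 5) and highest in the liver at 874 ± 729 FPKM, with 16.3 ± 12.2 FPKM in the spleen. The list gave no name for any of the 6 platelet and megakaryocyte markers, so the platelet content of the spleens was not examined.

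ITGA8 (ENSAMEG00000002860), the alpha subunit of a receptor of smooth muscle and mesenchymal cells, had 45.1, 41.8, 22.1, 41.0, and 40.8 FPKM in the spleens. The spleen of panda 3 was the low one and still stood above the highest of the other libraries, at 10.02 FPKM in the kidney of the same panda. SPP1, whose product osteopontin is a ligand of several integrins, had 12.9 ± 14.2 FPKM in the spleen and 4745 ± 3870 FPKM in the kidney (n = 5 each). ITGBL1 (ENSAMEG00000016556) encodes a secreted protein with integrin-like repeats and no receptor function. It had 27.5, 19.97, 9.64, 17.2, and 24.4 FPKM in the spleens and at most 7.37 FPKM elsewhere, and panda 3 was again the lowest spleen.

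ITGA4 (ENSAMEG00000003158), the alpha subunit of the lymphocyte homing receptors for VCAM1 and MADCAM1, was listed as low in the heart, where it ranged from 0.0780 to 0.434 FPKM. The spleens had 43.6, 13.8, 32.1, 20.97, and 46.9 FPKM and the lungs 11.2, 11.5, 19.6, 11.8, and 18.0 FPKM. Every spleen and lung was above every heart, liver, and kidney, and spleens and lungs overlapped. MADCAM1 was not shared in this way, since its spleens had 160 to 321 FPKM and its lungs 0.445 to 0.917 FPKM. FN1, encoding fibronectin, another ligand of ITGA4, had 105 ± 26.9 FPKM in the spleen and 212 ± 37.3 FPKM in the lung (n = 5 each).

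The heart had 2 high members of this group. ITGA7 (ENSAMEG00000011855), the laminin receptor subunit of striated muscle, had 85.5, 63.4, 29.4, 40.1, and 34.1 FPKM in the hearts, above all 20 other libraries, of which the highest was the kidney of panda 4 at 27.2 FPKM. ITGB1BP2 (ENSAMEG00000016081), or melusin, a muscle protein that binds the tail of the beta 1 integrin, had 30.6, 18.2, 20.2, 19.3, and 31.6 FPKM. No heart overlapped with another tissue, where it reached 14.5 FPKM in the lung of panda 3. The 7 cardiomyocyte markers summed to at most 65.9 FPKM in any library outside the heart, against 71100 to 91900 FPKM in the hearts.

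**Figure D3:**
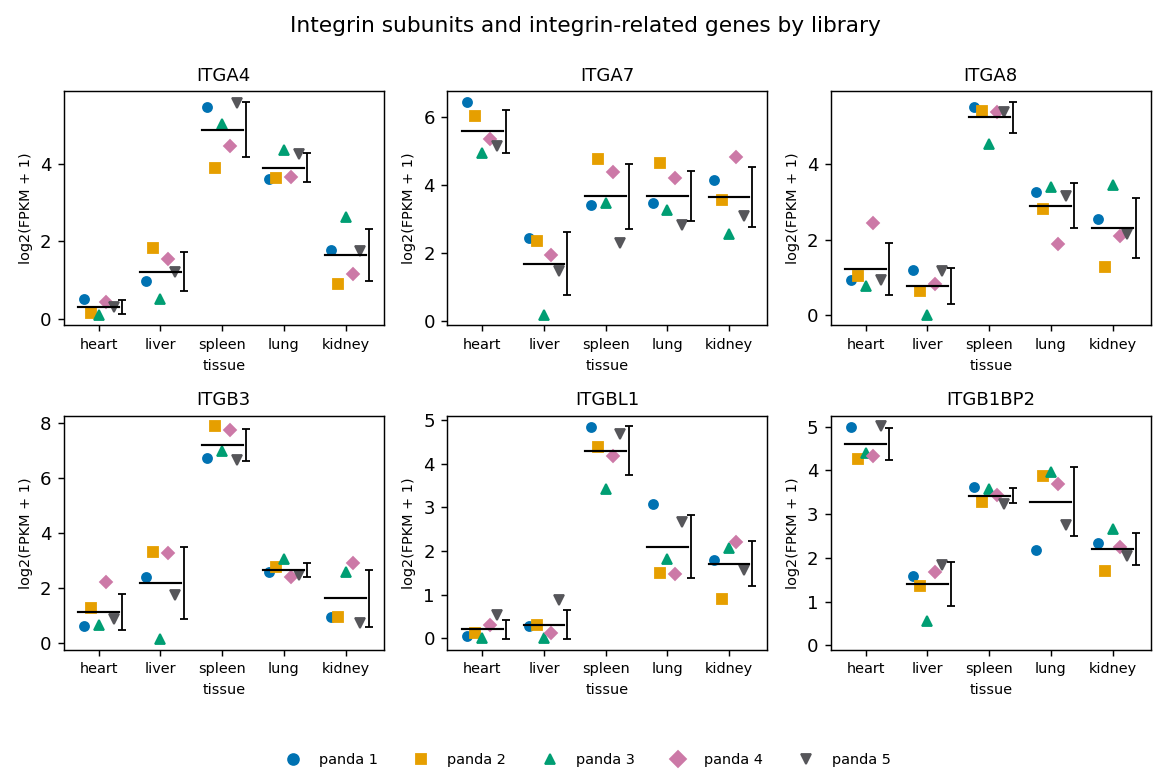
Level of the 6 integrin and integrin-related genes in each library, as log2(FPKM + 1) against tissue, with 1 point per panda, a line at the mean of 5 libraries, and a bar of 1 SD to its right (the vertical axes differ between genes). The spleens stand alone at the top for ITGA8, ITGB3, and ITGBL1, and the hearts for ITGA7 and ITGB1BP2. For ITGA4, spleens and lungs overlap above the other tissues, with a higher mean in the spleen.

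Among the proteases, ADAMTS7 alone was listed as high in the heart. ADAMTS7 (ENSAMEG00000012369), a metalloproteinase of vascular and cartilage matrix, had 43.6, 60.3, 18.0, 14.9, and 18.9 FPKM in the hearts and at most 13.5 FPKM elsewhere, in the lung of panda 1. A pair of proteases were listed as low in the liver. ADAMTS5 (ENSAMEG00000017292), which cuts aggrecan and versican, was between 0.0314 and 0.159 FPKM in the livers and highest in the spleens, at 25.6, 36.4, 25.8, 33.3, and 21.1 FPKM. ADAMTS8 (ENSAMEG00000002096) was between 0.0461 and 0.912 FPKM in the livers and highest in the lungs, at 86.5, 67.1, 48.5, 57.1, and 45.0 FPKM. The spread of ADAMTS8 was much wider in the spleens, at 9.35, 66.1, 15.5, 44.8, and 6.53 FPKM, where panda 2 lay within the range of the lungs and panda 4 just below it.

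The liver had the high values of ADAMTS13 and ADAM23. ADAMTS13 (ENSAMEG00000011605), the plasma protease that cuts von Willebrand factor and is made mainly by liver stellate cells, had 37.8, 11.7, 0.0386, 7.52, and 13.7 FPKM in the livers. The value of panda 3 came from 3 reads, and without that library the livers lay above all 20 other libraries, which reached 1.77 FPKM. ADAM23 (ENSAMEG00000002950), an ADAM without protease activity, showed the same gap, with 1.501, 2.199, 0.0443, 2.95, and 1.67 FPKM in the livers and at most 0.354 FPKM elsewhere. The lungs held a second, lower level of ADAMTS13, between 1.0002 and 1.77 FPKM, above all hearts, spleens, and kidneys.

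MMP7 (ENSAMEG00000010068), the epithelial metalloproteinase matrilysin, was listed as high in the kidney and low in the heart. The kidneys had 64.8, 99.4, 189, 13.4, and 57.4 FPKM and the hearts 0.220, 0.0814, 0, 0.298, and 0.211 FPKM. The lungs ranged from 9.78 to 33.7 FPKM, so the kidney of panda 4 alone lay within them. MMP25 (ENSAMEG00000005545), a membrane-anchored metalloproteinase of leukocytes, was listed as low in the heart (0.177 to 1.201 FPKM). The spleens had 15.9, 61.1, 16.3, 56.6, and 9.21 FPKM and the lungs 28.8, 29.1, 48.3, 16.1, and 17.3 FPKM. In the spleen, pandas 2 and 4 were the high animals for MMP25 as they were for ITGB3 and ADAMTS8. None of the 6 neutrophil markers had a name in the list, so leukocyte content was read from lymphocyte genes alone.

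ADAMDEC1 (ENSAMEG00000001578), an ADAM-like protease of macrophages and dendritic cells, was listed as low in the heart, where it ranged from 0 to 0.301 FPKM. The spleens had 65.0, 35.7, 67.9, 57.9, and 98.2 FPKM and the lungs 24.01, 11.6, 71.0, 11.7, and 37.7 FPKM. Kidneys were lower, at 3.35, 0.532, 9.06, 1.01, and 5.34 FPKM, and the order of the 5 pandas was the same in lung and kidney. ADAM28 (ENSAMEG00000001508), a protease of lymphocytes and epithelia, was listed for both lung and spleen. The lungs had 5.83, 2.09, 9.86, 1.97, and 8.44 FPKM and the spleens 0.460, 0.837, 2.16, 1.19, and 0.440 FPKM, which overlapped at the spleen of panda 3, the animal with the highest value in both. The 6 B cell markers, by contrast, summed to 404 to 798 FPKM in the spleens and 27.3 to 98.2 FPKM in the lungs, again with panda 3 highest in both. The part of immune cell content in ADAM28, ADAMDEC1, and ITGA4 was not tested.

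**Figure D4:**
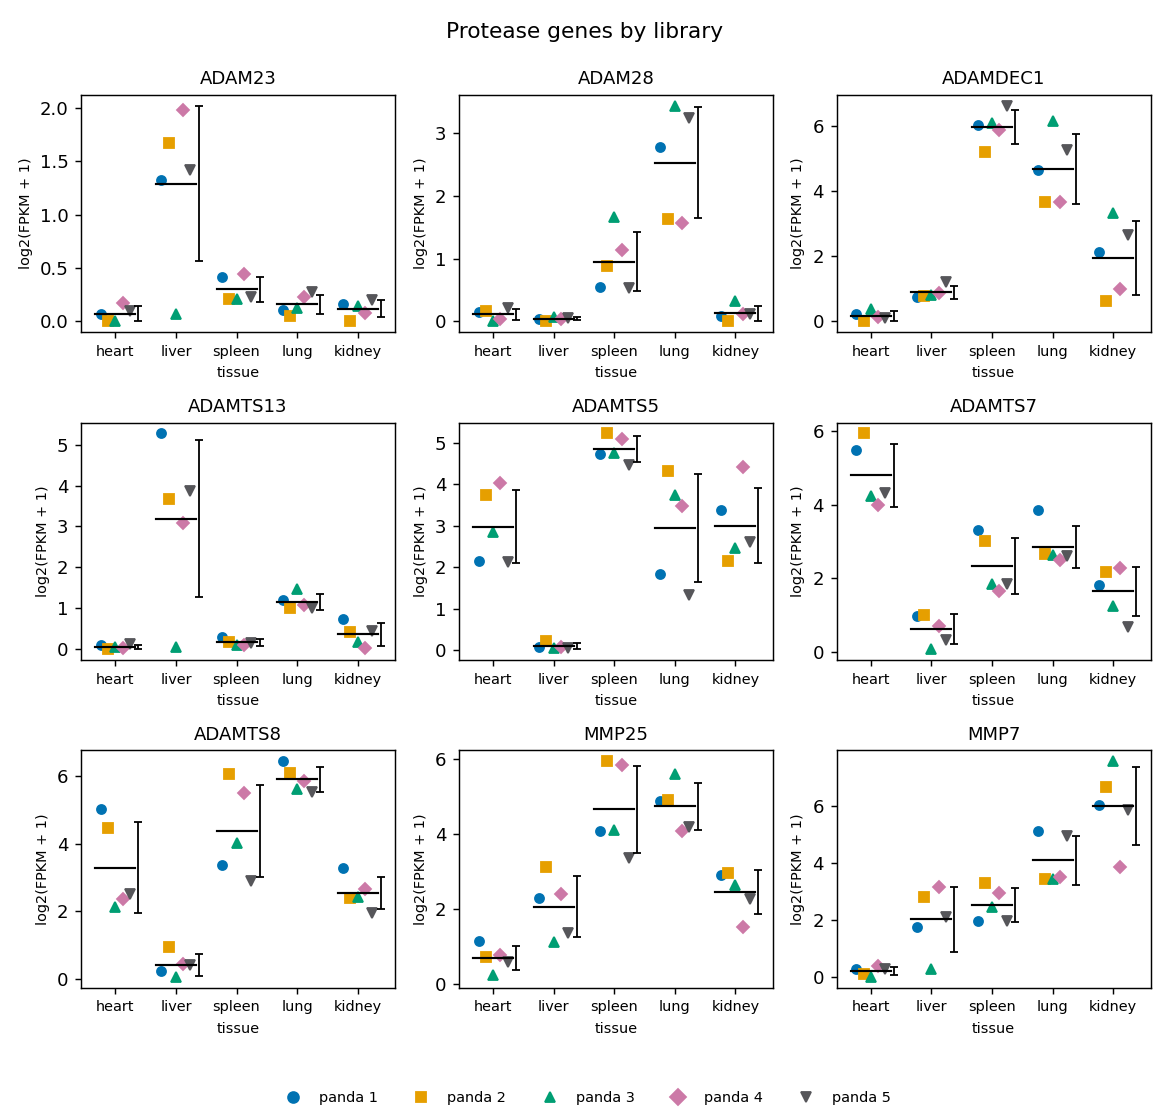
Level of the 9 genes of the protease families in each library, as log2(FPKM + 1) against tissue. Shown are 1 point per panda, a line at the mean of 5 libraries, and a bar of 1 SD to its right (the vertical axes differ between genes). The liver of panda 3 lies near 0 for ADAM23 and ADAMTS13, and the kidney of panda 4 is the lowest kidney for MMP7.

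The pairs of tissues that hold no listed tissue of a gene were open to a test. There were 150 combinations of gene and pair of this kind, and 119 of them, in 21 genes, exceeded a mean of 1 FPKM in one tissue of the pair or in both and were tested. The other 31 combinations, among them all those of ADAM23, ADAM28, HAPLN1, LAMB4, and LAMC3, were below that level in both tissues. Tissues were compared with limma on log2(FPKM + 1) across all genes of the pair, and a gene was called when its p, adjusted by Benjamini-Hochberg, was below 0.05 and its log2 difference lay beyond 2. In this way 31 of the 119 combinations were called (26.1%), in 13 genes, against 18.3% of all gene and pair combinations tested. In 30 of the 31 the libraries of the pair did not overlap, as was so for 93.6% of the calls among all genes. Log2 differences are given with their standard errors and adjusted p values from these fits, 5 libraries against 5.

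The scale of the libraries bears on these counts. The median log2 difference of all genes tested was -1.29 for liver minus spleen, -1.28 for liver minus lung, -1.16 for heart minus spleen, and -1.17 for heart minus lung, so low liver and heart values stood beside a shift of most genes. After TMM factors, which centre these medians near 0, 15 of the 31 calls were retained, and after quantile normalization 13 were, all of which were also called with TMM factors. Leaving out a single library ended the call in 9 of the 31. The shares of calls among all genes retained in these ways are not given, so these counts do not set the members apart from other genes.

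Liver and lung gave the most calls. Of 16 members tested, 9 were lower in liver, against 25.7% of all genes called lower in liver in that pair. The median difference of the members was -2.11. MFAP5 differed by -3.58 ± 0.360 (SE; adjusted p = 5.46e-06), ADAMDEC1 by -3.79 ± 0.451 (adjusted p = 1.85e-05), COL4A3 by -3.11 ± 0.380 (adjusted p = 2.25e-05), and EMILIN2 by -2.76 ± 0.459 (adjusted p = 0.000206). Of these, MFAP5 and ADAMDEC1 were retained under both normalizations and COL4A3 with TMM factors alone. ITGA4 (-2.69 ± 0.310), MMP25 (-2.69 ± 0.431), ADAMTS7 (-2.24 ± 0.312), ITGA8 (-2.15 ± 0.337), and MMP7 (-2.07 ± 0.556) completed the calls, and each lost the call under either normalization. ADAMTS7 was -1.991 without the lung of panda 1 and ITGA8 was -1.961 without the liver of panda 3. MMP7 was -1.64 without the liver of panda 3, -1.82 without the lung of panda 1, and -1.86 without the lung of panda 5.

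Between liver and spleen, 6 of 13 members tested were lower in liver, against 25.9% of all genes called lower in liver, and the members' median was -1.98. ADAMDEC1 had the largest difference of the 31 calls, -5.08 ± 0.290 (adjusted p = 7.24e-08), with 0.864 ± 0.266 FPKM (SD) in the liver and 64.9 ± 22.5 FPKM in the spleen. ITGA4 differed by -3.68 ± 0.380 (adjusted p = 6.75e-06) and, with ADAMDEC1, was retained under both normalizations. EMILIN2 differed by -2.99 ± 0.247 (adjusted p = 1.23e-06) and was retained with TMM factors. MMP25 (-2.61 ± 0.559), ADAMTSL5 (-2.18 ± 0.458), and ITGB1BP2 (-2.02 ± 0.278) lost the call under both. ADAMTSL5 was -1.93 without the spleen of panda 1 or of panda 2, and ITGB1BP2 was between -1.81 and -1.99 without the liver of panda 3, the spleen of panda 1, or the spleen of panda 3.

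Between liver and kidney, 2 of 14 members tested were lower in liver, against 11.7% of all genes called lower in liver. COL4A3 differed by -3.32 ± 0.648 (adjusted p = 0.00159) under both normalizations as well, and by -3.79 without the liver of panda 3 and the kidney of panda 4. MFAP5 differed by -2.05 ± 0.577 (adjusted p = 0.0120), which became -1.42 without the kidney of panda 4. Its call was also lost with quantile normalization (-1.47), with TMM factors (-1.64), and with limma-voom on recovered reads. ADAMDEC1 (-1.06 ± 0.459, adjusted p = 0.0695) and ITGA4 (-0.43 ± 0.373, adjusted p = 0.338), both called between liver and spleen, did not pass between liver and kidney.

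In the pairs with heart, 3 calls were made. Between heart and spleen 1 of 5 members tested was called, against 19.4% of all genes called lower in heart: LTBP2 was lower in heart by -3.34 ± 0.454 (adjusted p = 2.61e-05), also under both normalizations. Between heart and lung 2 of 9 were called, against 19.5% of all genes called lower in heart. They were LTBP2 (-2.91 ± 0.394, adjusted p = 2.69e-05) and ADAMTS8 (-2.61 ± 0.521, adjusted p = 0.000553), and both lost the call with TMM factors and with quantile normalization. Between heart and liver 0 of 3 members were called with limma (15.7% of all genes), 1 had an unadjusted p below 0.05, and limma-voom on recovered reads called 0. Between heart and kidney 0 of 7 were called with limma (15.3% of all genes), 2 had an unadjusted p below 0.05, and limma-voom called 1, ITGBL1. At an adjusted p below 0.05 without the size threshold, ITGBL1 (-1.50 ± 0.269) and ITGA8 (-1.10 ± 0.422) were lower in heart than in kidney.

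Spleen and lung gave 1 call in 18 members tested, lower in spleen, against 4.03% of all genes called lower in spleen. MFAP5 was lower in spleen by -2.19 ± 0.451 (adjusted p = 0.00308), in 4 of 5 pandas and with an overlap between the groups. The call was retained under both normalizations, and was lost without the lung of panda 1 (-1.985) or of panda 5 (-1.989). COL4A3 (-1.75 ± 0.350, adjusted p = 0.00245), MMP7 (-1.57 ± 0.409, adjusted p = 0.0122), ADAMTS8 (-1.53 ± 0.53, adjusted p = 0.0476), and ADAMTS13 (-0.99 ± 0.161, adjusted p = 0.000601) were lower in spleen. ADAMTS5 (1.91 ± 0.504, adjusted p = 0.0133) and ITGA4 (0.98 ± 0.323, adjusted p = 0.0384, in 5 of 5 pandas) were higher. None of these genes lay beyond 2 on the log2(FPKM + 1) scale. With limma-voom on recovered reads, ADAMTS13 (-3.335), ADAMTS5 (2.229), and COL4A3 (-2.066) were called, and MMP7 (-1.831), ADAMTS8 (-1.612), and ITGA4 (1.025) were not.

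Spleen and kidney gave 5 calls in 15 members tested, all higher in spleen, against 8.06% of all genes called higher in spleen. They were ADAMDEC1 (4.03 ± 0.478, adjusted p = 2.23e-05), ITGA4 (3.24 ± 0.403, adjusted p = 3.25e-05), and LTBP2 (3.08 ± 0.360, adjusted p = 1.92e-05), retained under both normalizations, and MMP25 (2.21 ± 0.502) and EMILIN2 (2.06 ± 0.344), which were not. MMP25 was 1.97 without the kidney of panda 4, 1.89 without the spleen of panda 2, and 1.91 without the spleen of panda 4. EMILIN2 lay between 1.87 and 1.999 without the kidney of panda 2 or 5 or the spleen of panda 1 or 5. COL4A3 was the largest difference in the other direction, lower in spleen at -1.97 ± 0.626 (adjusted p = 0.0189), and passed the size threshold under either normalization.

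Lung and kidney gave 5 calls in 19 members tested, all higher in lung, against 7.36% of all genes called higher in lung. ADAMTS8 differed most, by 3.36 ± 0.291 (adjusted p = 2.24e-06), followed by ADAMDEC1 (2.73 ± 0.585, adjusted p = 0.00222) and LTBP2 (2.65 ± 0.295, adjusted p = 1.63e-05), and these 3 were retained under both normalizations. MMP25 (2.28 ± 0.368) and ITGA4 (2.26 ± 0.351) were not. COL4A3, high in both tissues, differed by -0.21 ± 0.664 (adjusted p = 0.809).

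Read across the pairs, the 13 calls retained under both normalizations belonged to 6 genes. LTBP2 was higher in spleen and lung than in kidney and higher in spleen than in heart, ADAMDEC1 was higher in spleen and in lung than in liver and than in kidney, and ITGA4 was higher in spleen than in liver and kidney. MFAP5 was higher in lung than in liver and spleen, COL4A3 was higher in kidney than in liver, and ADAMTS8 was higher in lung than in kidney. The pairs share libraries, so the calls of a gene are not independent of each other. The 4 T cell markers summed to 168 to 1550 FPKM in the spleens and 41.0 to 89.4 FPKM in the lungs, and to at most 8.64 FPKM in any heart, liver, or kidney. The part of these markers in the higher ADAMDEC1 and ITGA4 of spleen and lung was not tested.

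**Figure D5:**
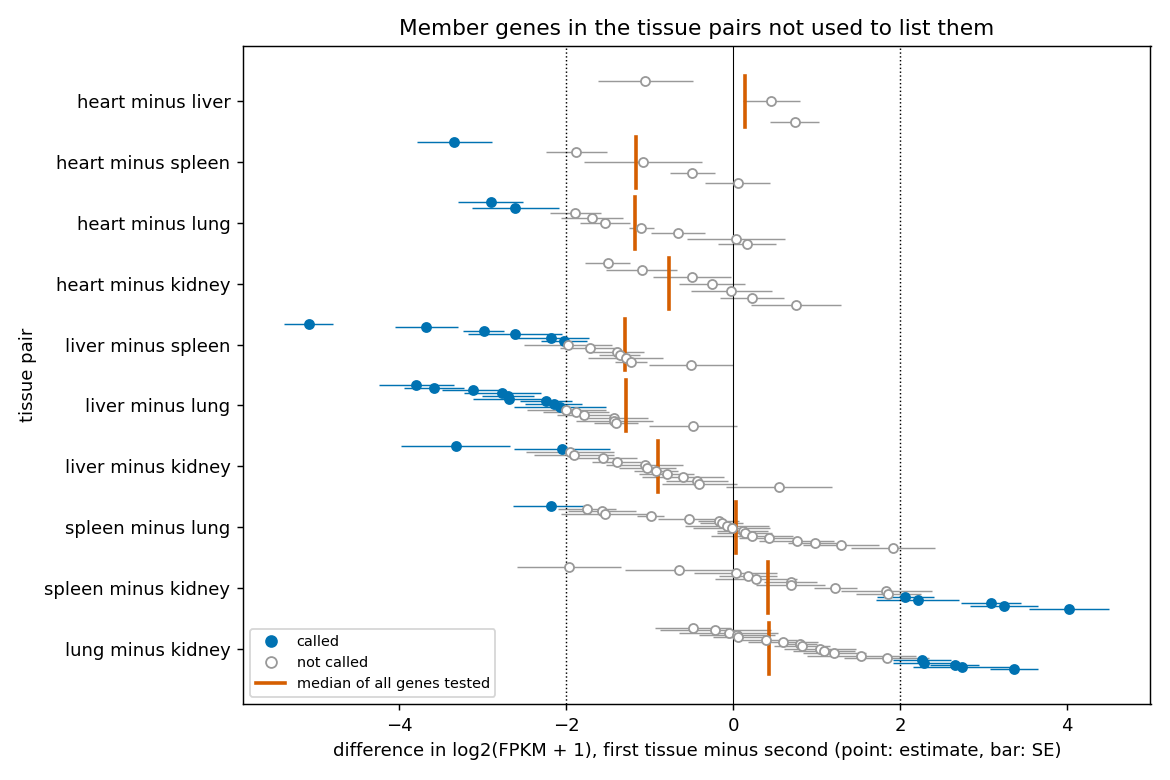
Difference in log2(FPKM + 1) of each tested member, first tissue minus second, for the 10 tissue pairs (5 libraries against 5), with bars of 1 SE, filled points for calls, and dotted lines at differences of 2 in either direction. The short vertical line in each pair marks the median of all genes tested, which lies between -0.765 and -1.29 where heart or liver is set against spleen, lung, or kidney, and the farthest point is ADAMDEC1 between liver and spleen at -5.08.

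The pandas could be compared within each tissue, since the rule compared tissues only. Pandas 3 to 5 (age 0.5, virus infection) were set against pandas 1 and 2 (ages 27 and 9, other causes) with limma in each tissue, with calls at an adjusted p below 0.05 when the log2 difference also lay beyond 1. Pandas 3 to 5 also all died in 2018, and pandas 1 and 2 in 2015 and 2016. Age, cause, and year of death therefore cannot be told apart. None of the 90 combinations of member and tissue tested was called, and 0 of all genes were called in any tissue (0%), by limma or by limma-voom on recovered reads. At an unadjusted p below 0.05 there were 8 of the 90 combinations (8.89%), against 4.06% of all gene and tissue combinations and 10.5% of genes in the spleen alone.

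All 8 of these were lower in pandas 3 to 5, with no overlap between the sets, and none passed the correction. Of all gene and tissue combinations at this unadjusted threshold, 76.7% were lower in pandas 3 to 5 (84.2% in the heart) and 99.2% had no overlap. ADAMTSL5 accounted for 3 of them. Its level in pandas 1 and 2 against pandas 3 to 5 was 211 and 178 against 53.6, 73.3, and 55.01 FPKM in the heart, 38.3 and 37.7 against 10.6, 10.5, and 12.8 FPKM in the spleen, and 36.3 and 24.7 against 10.3, 10.8, and 7.37 FPKM in the kidney. The log2 difference was -1.67 ± 0.298 in the heart (limma, unadjusted p = 0.000648, adjusted p = 0.999), -1.67 ± 0.216 in the spleen (unadjusted p = 0.000237, adjusted p = 0.247), and -1.58 ± 0.468 in the kidney (unadjusted p = 0.00933, adjusted p = 0.984). Of the 2 remaining tissues, the liver had no overlap either (-0.92 ± 0.655), and the lung overlapped (-0.78 ± 0.494).

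ADAMTS8 had the largest difference, in the heart, with 31.8 and 21 FPKM in pandas 1 and 2 against 3.38, 4.12, and 4.74 FPKM in pandas 3 to 5 (-2.41 ± 0.345, limma, unadjusted p = 0.000158, adjusted p = 0.999). ADAMTS7 was lower in the heart (-1.53 ± 0.321, adjusted p = 0.999) and spleen (-1.38 ± 0.258, adjusted p = 0.253) at the unadjusted threshold, ITGA7 in the heart (-1.08 ± 0.316, adjusted p = 0.999), and HAPLN3 in the spleen (-1.06 ± 0.317, adjusted p = 0.367). The 7 cardiomyocyte markers summed to 78700 and 89700 FPKM in the hearts of the older pair and 71100 to 91900 FPKM in those of the other 3. Single markers differed without overlap in both directions. MYH7 was higher in the older pair (2120 and 2390 against 1490, 2070, and 1230 FPKM). TNNI3 (6780 and 8110 against 9720, 8970, and 9260 FPKM) and TNNC1 were lower in it, and the other markers overlapped. The part of cardiomyocyte content in the heart differences was not tested.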

How the data were processed

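Per the methods of the study, the authors mapped reads with HISAT2 against the ailMel1 assembly, added transcripts built by Cufflinks, counted with HTSeq, and deposited 1 FPKM value per gene and library, with no scaling between libraries. Gene names came from the study's list of tissue-specific DEGs, for which the authors ran DESeq on each pair of tissues. The list names 1778 of its 2814 gene identifiers, 0 matrix genes of the same pattern beyond the members could be named, and 5 of 40 partner genes had a name. Its fold changes and p values were not used. The members, the gene lists, and the tests were chosen with earlier results of these data known. Every member is named, and beside them the partner genes and markers with a name. A result on 1 further marker list is not reported here.

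The listed tissue of a gene was described only. The other pairs were tested with limma 3.58.1 under R 4.3.3, with a variance trend, on log2(FPKM + 1), which understates differences near 0. A gene entered a test when the mean of either group exceeded 1 FPKM, and p values were adjusted over all genes tested. Alternatives were quantile normalization, TMM factors (30% of log ratios and 5% of levels trimmed), a pseudocount of 0.1, other filters and thresholds, the panda as a block, 1 fit of all 25 libraries, and each library left out in turn. Whole reads were recovered from the steps of the FPKM values for all 24207 genes above 0, within 0.05 reads, and served for depth and for limma-voom. Depth ranged from 13149557 to 21383373 reads. Libraries with the same number were taken to come from the same panda, as sex, age, and cause of death in the labels match. Pandas 3 and 4 are alike in all of these, so these labels do not tell their libraries apart. Deviations from the tissue means correlated across genes at 0.0600 to 0.521 between libraries of the same number (median 0.367, 49 of 50 pairs above 0.1). Between different numbers the median was -0.122 and the highest 0.377, so the ranges overlapped. The fit was tested on simulated data: of 200 genes changed 8-fold between spleen and lung (16243 genes), 193 were called, none with the wrong sign, and 0 unchanged genes were called. Between the kidneys of pandas 3 to 5 and of pandas 1 and 2 (15469 genes), all 200 were called, none with the wrong sign, as were 10 unchanged genes. The simulated reads had the same mean in both groups for unchanged genes, 1 dispersion for all genes, and no shift of most genes between libraries. They do not measure how many differences between the real panda sets the fit would call. Python 3.11.15 (numpy 2.4.6, pandas 2.3.3, scipy 1.17.1, matplotlib 3.10.9) was used for the tables and figures.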

Additional observations from a re-analysis of the deposited data

Results flagged for a closer look

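In 16 of 128 groups of 5 libraries of a gene and tissue, 1 library lay far from the other 4, with a gap to the nearest over the whole range beyond 0.71 (Dixon). Chance gives about 1 in 20 such groups when values are normal. On these FPKM values the share was 12.5% of the groups of the members and 9.64% of 91377 groups of all expressed genes, where the far library was high in 88.3%. Of the 16, 6 were in panda 1 and 15 were high. Panda 1 was the high library for ADAMTS7 in the lung (13.49 FPKM), ADAMTSL5 in the liver (7.953 FPKM) and lung (25.43 FPKM), HAPLN1 in the kidney (0.1336 FPKM), and HAPLN3 in the heart (6.214 FPKM) and kidney (3.592 FPKM). Panda 4 was the high library for MFAP5 in the kidney (24.52 FPKM), ITGA8 in the heart (4.454 FPKM), and ITGB3 in the heart (3.646 FPKM). The kidney of panda 4 also had the lowest tubule markers of the 5 kidneys, and its LUM, a fibroblast marker, was 17.7 FPKM against 3.31 to 7.94 FPKM in the other kidneys. The part of tissue content in its MFAP5 was not tested. In panda 3, LAMB4 was high in the spleen (4.812 FPKM) and ITGA8 was the only low value of the 16, also in the spleen (22.09 FPKM). Panda 5 was high for LAMB4 in the heart (0.1399 FPKM), ADAMDEC1 in the liver (1.327 FPKM), and ITGBL1 in the liver (0.8204 FPKM). Panda 2 was high in the liver for ADAMTS5 (0.1589 FPKM) and HAPLN3 (0.0452 FPKM). The HAPLN3 value in the liver rested on 1 read and the HAPLN1 value in the kidney on 2 reads.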

How the results depend on the processing

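The number of called members in the pairs open to a test was 31. It was 14 with quantile normalization, 16 with TMM factors, 57 with a pseudocount of 0.1, and 66 with a log2 threshold of 1. It was 33 with limma-voom on recovered reads (21 of them among the 31), 31 with no filter on low values and in 1 fit of all libraries, and 30 with a filter on every library. With the panda as a block it was 31, and the block changed none of the 31 calls. Without single libraries the count ranged from 28 to 35, and without both the liver of panda 3 and the kidney of panda 4, an alternative added after the data were seen, it was 30. Shares of all genes called under these alternatives are not given, so the counts describe the members only. None of the 31 calls changed direction under any of these alternatives, whereas differences that were not called did, among them 22 of 119 with quantile normalization, 17 of 117 with TMM factors, and 20 of 119 with limma-voom. For pandas 3 to 5 against pandas 1 and 2 the count was 0 under each alternative run. A planned comparison of matrix genes outside the member list was not run, since no such gene had a name. Genes below about 0.2 FPKM rest on a few reads.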
